A study of Mus musculus with 4 samples.

Results

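The CC chemokines are small secreted proteins that draw leukocytes to inflamed tissue, and the group analysed here is 8 of their genes (Ccl2, Ccl3, Ccl4, Ccl5, Ccl7, Ccl9, Ccl12 and Ccl22) together with Ccrl2, the gene of an atypical chemokine receptor. These 9 genes were taken by symbol from the 22911 genes that could be named on the array, and they were read by 10 probes, of which Ccl4 had 2. RNA came from RAW264.7 cells, a mouse macrophage line transformed by Abelson leukemia virus, that had received either a SMARTpool of siRNAs against Ruvbl2 or a control siRNA. The 4 groups were Ruvbl2 siRNA with LPS, control siRNA with LPS, Ruvbl2 siRNA with DMSO and control siRNA with DMSO, and each was 1 array on the same slide. LPS is a bacterial cell wall lipid sensed through Toll-like receptor 4, and no dose or duration for it was found in the labels. The sample titles spell the siRNA target as Rvbl2, read here as the RUVBL2 of the series description. The labels name both electroporation and a transfection reagent without saying which was used for which culture. The series asks how RUVBL2, an ATPase of chromatin remodelling and chaperone complexes, bears on proinflammatory gene expression after LPS.

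CC chemokines take their name from an adjacent pair of cysteines near the start of the mature protein, and they act on G protein-coupled receptors of the CCR family. CCL2, CCL7 and CCL12 are monocyte chemoattractants that act through CCR2, while CCL3, CCL4 and CCL5 are inflammatory chemokines that draw monocytes and T cells. In macrophages, Toll-like receptor signalling through NF-kB is a known driver of many of these genes. CCRL2 binds chemerin and presents it to neighbouring cells without signalling in the usual way.

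The level of a gene below is its log2 processed signal minus the 75th percentile of all probes on that array, so a difference of 1 between arrays is 2-fold, and a difference was called at that size. Processed signals of single genes are given before this scaling, so the siRNAs are to be compared by level. The 75th percentile of the DMSO arrays was 331 with Ruvbl2 siRNA and 456 with control siRNA. With 1 array per group no value has a replicate error, no test was possible, and the errors given cover the array measurement only. The scanner software put the error of a bright spot at 10.0% of its signal, which is an SD of 0.20 for a log2 difference. Probes printed 10 times gave an SD of a log2 difference of 0.05 at levels above 3, 0.12 from -2 to 3, 0.27 from -4 to -2 and 0.61 from -7 to -4. Both Ruvbl2 siRNA arrays lay in one row of the slide and both control siRNA arrays in the other, and an effect of slide row and an effect of siRNA cannot be told apart. Fewer responding cells and less mRNA per cell cannot be told apart either, since RNA was taken from the whole culture.

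Ruvbl2 itself was lower on the Ruvbl2 siRNA array of each pair, by less than 2-fold. Its brighter probe had levels of 4.51 with Ruvbl2 siRNA and 4.92 with control siRNA under LPS, and 4.67 with Ruvbl2 siRNA and 5.01 with control siRNA in DMSO. These are differences of -0.40 and -0.34, with a software SD of 0.20, and the dimmer probe gave -0.12 under LPS and -0.55 in DMSO. For the brighter probe, counting Ruvbl2 itself, 1383 of 13472 genes were as low or lower under LPS and 973 of 13402 in DMSO. Of 10 macrophage markers, 8 were well above background on each array except the control siRNA LPS array, which had 9, and Mertk was not detected on any. Under LPS their summed signal was 1179 times the 75th percentile with Ruvbl2 siRNA and 1121 times with control siRNA, and in DMSO 1050 times with Ruvbl2 siRNA and 933 times with control siRNA. Of the 4 measured T cell markers, Cd3e, Cd3d and Cd4 were detected on each of the arrays and Cd8a on none, with a summed signal of 3.29 to 3.97. Pax5 of the B cell list, Col1a2 of the fibroblast list and Pecam1 of the endothelial list were detected on all arrays, Zbtb46 of the dendritic list on 3, and Cd79a of the B cell list and Krt18 of the epithelial list on the control siRNA DMSO array alone. The other markers of those lists, and all 3 natural killer and 3 mast cell markers, were not detected, and the highest sum of these 7 lists on any array was 0.145. The summed signal of the 3 measured neutrophil markers moved with LPS. Under LPS it was 2.06 with Ruvbl2 siRNA and 1.84 with control siRNA, against 0.95 with Ruvbl2 siRNA and 0.724 with control siRNA in DMSO, and its part in the results was not tested. Of the 3, S100a8, which macrophages can also express, had levels of 0.53 with Ruvbl2 siRNA and 0.24 with control siRNA under LPS, against -2.42 with Ruvbl2 siRNA in DMSO and no signal well above background with control siRNA in DMSO. Elane went the other way, with levels of -0.82 under LPS and -0.48 in DMSO with Ruvbl2 siRNA. With control siRNA its levels were -0.68 under LPS and -0.56 in DMSO. Mpo was detected on the Ruvbl2 siRNA DMSO array alone.

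Short stretches before the start of 4 of the genes are shown because they differ in the motifs they hold while all 4 genes were higher with LPS with the control siRNA. They come from RefSeq, build GRCm38.p6, which held promoter entries for 5 of the 9 genes (Ccl3, Ccl9, Ccl12, Ccl22 and Ccrl2). Each is the 120 bases before the start, 5′ to 3′ on the strand of the gene, with motif matches in capitals.
Ccrl2 (chr9:111057519-111057638, minus strand): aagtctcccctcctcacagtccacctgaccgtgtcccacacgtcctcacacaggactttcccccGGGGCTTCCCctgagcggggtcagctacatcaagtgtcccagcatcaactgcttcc
Ccl3 (chr11:83649379-83649498, minus strand): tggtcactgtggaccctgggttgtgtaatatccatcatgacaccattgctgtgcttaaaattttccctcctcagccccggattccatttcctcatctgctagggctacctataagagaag
Ccl9 (chr11:83578637-83578756, minus strand): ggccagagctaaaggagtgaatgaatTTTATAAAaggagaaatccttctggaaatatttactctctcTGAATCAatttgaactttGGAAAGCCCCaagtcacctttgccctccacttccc
Ccl12 (chr11:82101725-82101844, plus strand): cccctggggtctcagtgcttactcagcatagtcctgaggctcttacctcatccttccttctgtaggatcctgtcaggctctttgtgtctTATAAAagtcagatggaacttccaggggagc

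The 250 bases before each start were searched on both strands for the NF-kB consensus, for AP-1 (TGANTCA), for the interferon-stimulated response element (GAAANNGAAA) and for the TATA box (TATAAA). Of 32851 promoter windows of the same length, 3.9% held the NF-kB consensus, 6.75% AP-1, 2.98% the response element and 12.4% the TATA box. The most upstream of the 3 annotated starts of Ccrl2 had an NF-kB match from -56 to -47, and the windows of its other starts had no match of the 4 motifs. Ccl9 had an NF-kB match on the opposite strand from -35 to -26, and AP-1 from -53 to -47, which reads as a match on both strands. It had a TATA box on its own strand from -92 to -87. An overlapping TATA box match from -94 to -89, and another from -224 to -219 outside the stretch shown, were on the opposite strand. Ccl12 had a TATA box from -31 to -26, and Ccl3 and Ccl22 had no match of these letters in the window. Matches are letters in a sequence and not measured binding.

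**Figure D1:**
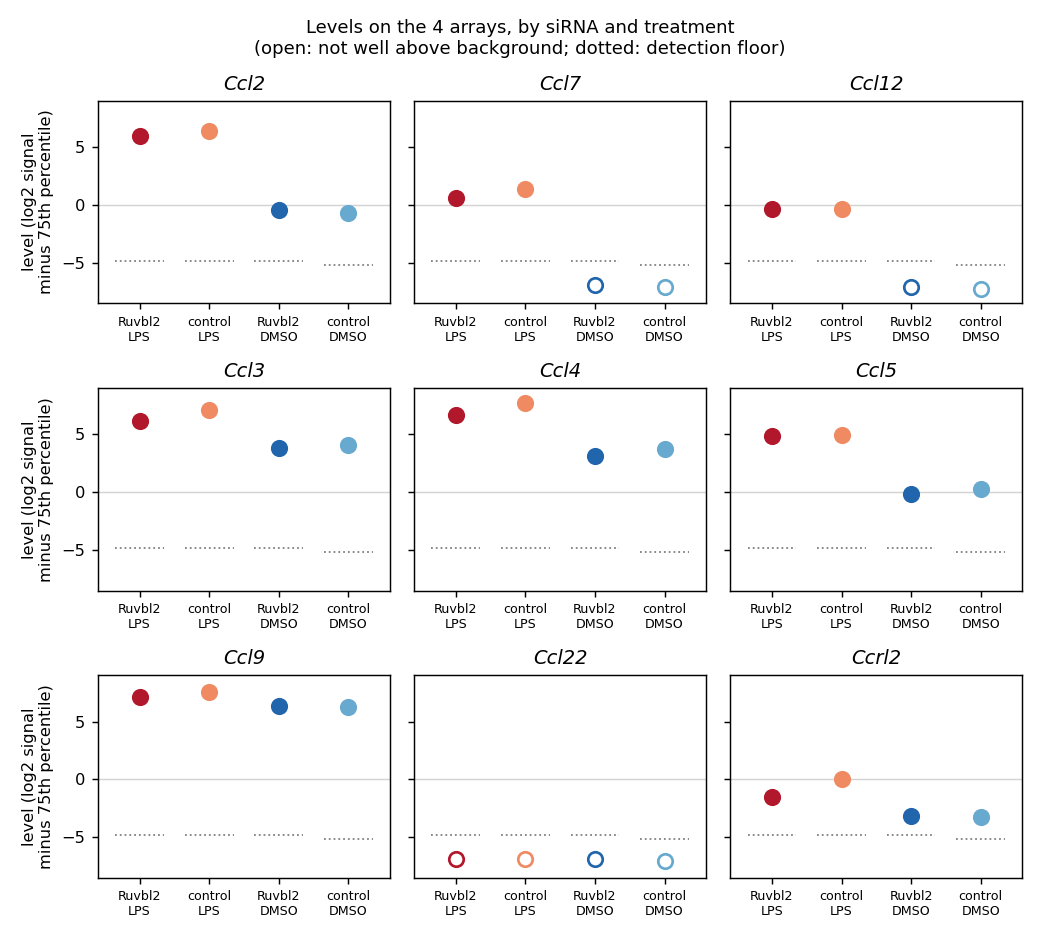
Levels of the 9 genes (log2, relative to the 75th percentile of each array) on the 4 arrays, 1 point per array, with the detection floor of each array as a dotted line and open points where the probe was not well above background. Ccl7 and Ccl12 were detected on the LPS arrays alone and Ccl22 on none, while Ccl9 stood between 6.26 and 7.55 on every array.

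Most of the group read higher with LPS, with either siRNA. Of the 9 genes, 6 were detected on all 4 arrays (Ccl2, Ccl3, Ccl4, Ccl5, Ccl9 and Ccrl2). With Ruvbl2 siRNA, 5 of these 6 were called higher and 0 lower, against a background over all genes compared of 4.09% called higher and 2.07% lower (of 13516). With control siRNA, 6 of 6 were called higher and 0 lower, against 5.75% higher and 2.2% lower (of 13504). Over the 12471 genes detected on all 4 arrays the share called higher was 3.13% with Ruvbl2 siRNA and 4.61% with control siRNA. The median difference of the 6 was 2.97 with Ruvbl2 siRNA and 3.63 with control siRNA, where that of the 12471 genes was -0.03 and 0.00. Ccl7 and Ccl12 were also called higher with both siRNAs, but they were detected on the LPS arrays alone and so could be compared in that direction only. The 9th gene, Ccl22, whose product acts on CCR4 and draws regulatory and helper T cells, was not well above background on any array, at levels of -6.91, -6.90, -6.84 and -7.02 on the Ruvbl2 LPS, control LPS, Ruvbl2 DMSO and control DMSO arrays.

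Ccl2, the main monocyte chemoattractant, showed the largest measured LPS difference of the group. Its processed signal was 25518 with Ruvbl2 siRNA and 33187 with control siRNA under LPS, against 250.2 with Ruvbl2 siRNA and 283 with control siRNA in DMSO. Both LPS arrays were far above both DMSO arrays, and the array with control siRNA was the brighter within each treatment before scaling. The LPS difference of the level was 6.37 ± 0.20 with Ruvbl2 siRNA and 7.08 ± 0.20 with control siRNA (software SD, 1 array each side). Counting Ccl2 itself, 4 of 13516 genes reached that size with Ruvbl2 siRNA and 7 of 13504 with control siRNA.

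Ccl7 and Ccl12, the other CCR2 ligands of the group, were at background without LPS. Ccl7 had a processed signal of 604 with Ruvbl2 siRNA and 997 with control siRNA under LPS, against 2.67 and 3.32 with the same siRNAs in DMSO, where it was not well above background. Ccl12 had 328 with Ruvbl2 siRNA and 309 with control siRNA under LPS, against 2.39 and 2.94 in DMSO, likewise not well above background. Only lower limits can therefore be given, set against the lowest level of any named gene called well above background on the DMSO array (-4.81 with Ruvbl2 siRNA and -5.15 with control siRNA). Ccl7 was at least 41.5-fold higher with LPS with Ruvbl2 siRNA and at least 89.9-fold with control siRNA, and Ccl12 at least 22.6-fold and at least 27.9-fold with the same siRNAs. These limits hold for the 75th percentile scaling: as log2 differences they are 5.38 with Ruvbl2 siRNA and 6.49 with control siRNA for Ccl7, and normexp background correction with quantile normalization gave 3.25 and 3.80 with the same siRNAs. For Ccl12 they are 4.50 and 4.80, against 2.61 and 2.42 after that correction. The floors differ between the DMSO arrays, so the limits of the siRNAs cannot be set against each other.

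Ccl5, Ccl4 and Ccl3 were detected without LPS and were still several-fold higher with it. Ccl5, also called RANTES, had a signal of 11462 with Ruvbl2 siRNA and 12337 with control siRNA under LPS, against 299.5 with Ruvbl2 siRNA and 539 with control siRNA in DMSO. Its LPS difference was 4.96 ± 0.20 (31.1-fold) with Ruvbl2 siRNA and 4.72 ± 0.20 (26.4-fold) with control siRNA. Ccl5 was the one gene of the 6 measured on all 4 arrays whose LPS difference was larger with Ruvbl2 siRNA.

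Ccl4, also called MIP-1 beta, had a signal of 42551 with Ruvbl2 siRNA and 84919 with control siRNA under LPS, against 2957 with Ruvbl2 siRNA and 6101 with control siRNA in DMSO. The LPS arrays lay above the DMSO arrays, and within each treatment the Ruvbl2 siRNA array was the lower. The LPS difference was 3.55 ± 0.20 (11.7-fold) with Ruvbl2 siRNA and 4.01 ± 0.20 (16.1-fold) with control siRNA, and the second Ccl4 probe gave 3.40 and 3.89. Ccl3, also called MIP-1 alpha, had a signal of 29668 with Ruvbl2 siRNA and 53408 with control siRNA under LPS, against 4580.5 with Ruvbl2 siRNA and 7863 with control siRNA in DMSO. Its LPS difference was 2.40 ± 0.20 (5.26-fold) and 2.97 ± 0.20 (7.84-fold) with the same siRNAs.

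Ccl9, a ligand of CCR1 that myeloid cells of the mouse produce at rest, moved least. Its signal was 56569 with Ruvbl2 siRNA and 74153 with control siRNA under LPS, against 26346 with Ruvbl2 siRNA and 34955 with control siRNA in DMSO. The LPS difference was 0.80 ± 0.20 (1.74-fold, not called) with Ruvbl2 siRNA and 1.29 ± 0.20 (2.45-fold, called) with control siRNA. Scaling on spike-in RNA gave 1.17 with Ruvbl2 siRNA, past the 2-fold size.

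Ccrl2 showed the widest gap between siRNAs in its response to LPS. Its signal was 145 with Ruvbl2 siRNA and 394 with control siRNA under LPS, against 37.3 with Ruvbl2 siRNA and 47.4 with control siRNA in DMSO. The control siRNA LPS array stood above the other 3, and the Ruvbl2 siRNA LPS array lay between it and the DMSO arrays. The LPS difference was 1.66 ± 0.23 (3.15-fold) with Ruvbl2 siRNA and 3.26 ± 0.22 (9.60-fold) with control siRNA. Normexp background correction with quantile normalization gave 0.93 with Ruvbl2 siRNA, under the 2-fold size, and 2.23 with control siRNA.

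Ordered by the measured LPS difference with Ruvbl2 siRNA, Ccl2 came first, then Ccl5, Ccl4, Ccl3, Ccrl2 and Ccl9. With control siRNA the order was Ccl2, Ccl5, Ccl4, Ccrl2, Ccl3 and Ccl9. There Ccrl2 and Ccl3 differed by less than the software SD of either plus the other, while the other neighbours lay further apart than that. After normexp correction with quantile normalization Ccl3 was ahead of Ccrl2 with control siRNA too (2.95 for Ccl3 and 2.23 for Ccrl2). The bounds of Ccl7 and Ccl12 give them no fixed place in either order.

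**Figure D2:**
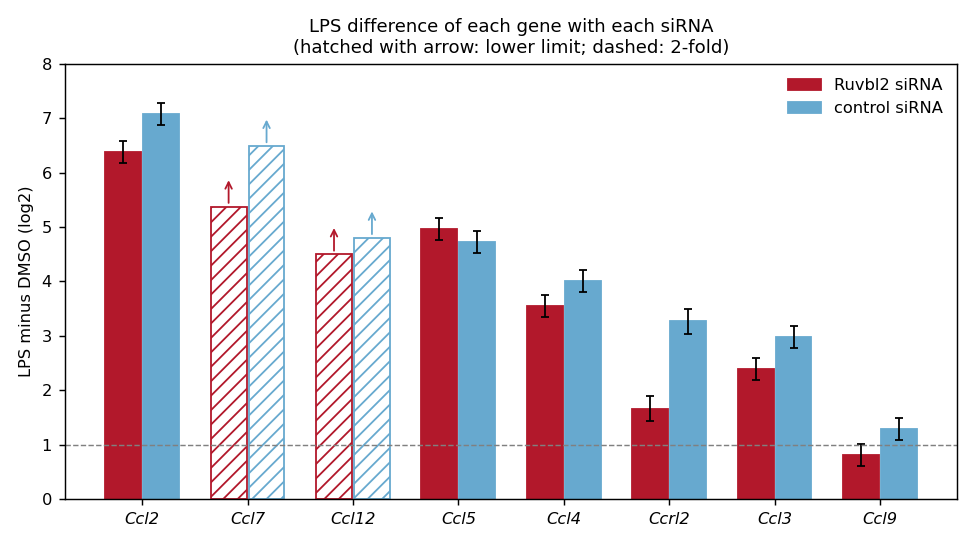
LPS minus DMSO difference of the level (log2) for the 8 detected genes, with Ruvbl2 siRNA left of control siRNA for each gene; error bars are the scanner software's SD for 1 array a side, hatched bars with arrows are lower limits and the dashed line is 2-fold. Ccrl2 shows the widest gap between siRNAs (1.66 with Ruvbl2 siRNA, 3.26 with control siRNA), and Ccl5 is the one measured gene with the higher bar for Ruvbl2 siRNA.

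Set side by side under LPS, as the title of the series asks, the siRNAs gave lower values with Ruvbl2 siRNA for most of the group, at 7 of the 8 compared genes. Of these, 2 passed the 2-fold size, Ccrl2 and Ccl4, against a background of 1.46% of 13472 genes called lower, and 0 were called higher, against 1.04%. The median difference of the 8 genes was -0.60, where that of all genes was 0.00. The levels behind these values are on the 2 LPS arrays alone, so each difference rests on 1 pair of cultures.

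Ccrl2 differed most, with a level of -1.49 with Ruvbl2 siRNA and 0.00 with control siRNA under LPS. The difference was -1.49 ± 0.21, or 35.7% of the control siRNA signal after scaling, and 55 of 13472 genes were as low or lower. Ccl4 stood at 48.6% of control (6.71 with Ruvbl2 siRNA, 7.75 with control siRNA, difference -1.04 ± 0.20), just past the 2-fold size. Its second probe gave -1.09. Ccl3, whose gene neighbours Ccl4, stood at 53.9% (difference -0.89 ± 0.20), just short of it.

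The CCR2 ligands did not move as a block under LPS. Ccl7 stood at 58.7% of control (0.57 with Ruvbl2 siRNA, 1.34 with control siRNA, difference -0.77 ± 0.20), and Ccl2 at 74.6% (5.97 with Ruvbl2 siRNA, 6.39 with control siRNA, difference -0.42 ± 0.20). Ccl12 stood at 103% (-0.31 with Ruvbl2 siRNA, -0.35 with control siRNA, difference 0.04 ± 0.20), the one gene of the 8 above 0. Ccl9 stood at 74.0% (difference -0.43 ± 0.20) and Ccl5 at 90.2% (4.81 with Ruvbl2 siRNA, 4.96 with control siRNA, difference -0.15 ± 0.20). The values of Ccl5 and Ccl12 lay within 1 software SD of 0. The probe sequences were not used here, so hybridisation of one ligand's mRNA to the probe of a similar one was not tested.

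Without LPS the siRNAs were closer, and no gene of the group was called. The 6 genes detected on both DMSO arrays had a median difference of -0.13, with 3 above and 3 below 0, where all genes had a median of 0.04 and 0.53% of 13402 were called lower and 1.01% higher. Ccl4 was lowest, with a level of 3.16 with Ruvbl2 siRNA and 3.74 with control siRNA in DMSO (difference -0.58 ± 0.20, second probe -0.59). Ccl5 (-0.38 ± 0.20) and Ccl3 (-0.32 ± 0.20) were the others below 0, so these 3 ligands read lower with Ruvbl2 siRNA before LPS as well. Ccl2 (0.29 ± 0.21), Ccrl2 (0.12 ± 0.24) and Ccl9 (0.056 ± 0.20) were above 0. With spike-in scaling these last values were -0.03, -0.19 and -0.26, and the median of all genes was -0.27. That scaling moves all genes of an array by the same amount, so it cannot change where a gene stands relative to the others.

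**Figure D3:**
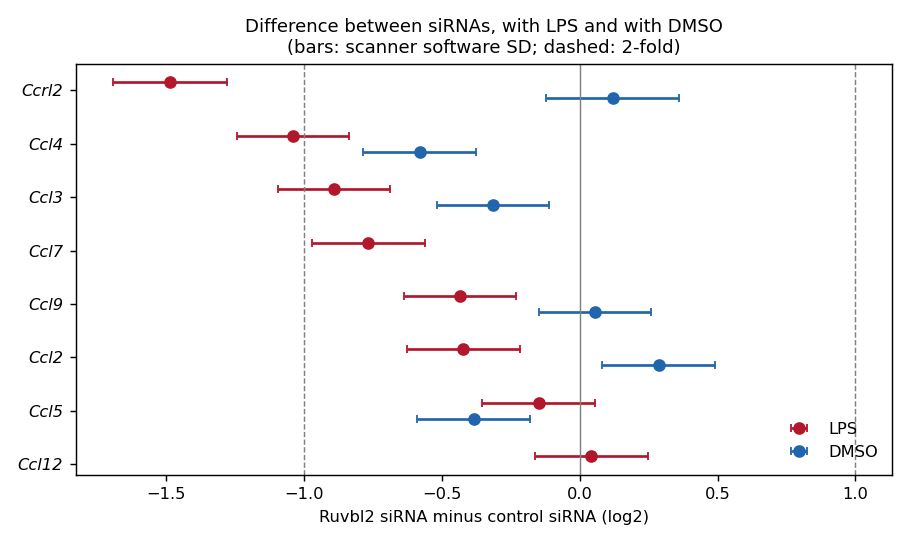
Ruvbl2 siRNA minus control siRNA difference of the level (log2) under LPS and in DMSO for the genes detected on both arrays of a pair; bars are the scanner software's SD and dashed lines mark 2-fold in either direction. Ccrl2 lies at -1.49 under LPS and 0.12 in DMSO, while Ccl4 lies below 0 in both (-1.04 and -0.58).

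The difference between the LPS differences, taken over all 4 arrays, sets the response to LPS with one siRNA against that with the other. Of the 6 genes measured on all arrays, 5 had the smaller LPS difference with Ruvbl2 siRNA, with a median of -0.53 where all 12471 genes had one of -0.03. Ccrl2 alone passed the 2-fold size (-1.61 ± 0.32), against a background of 1.18% of genes lower by that much and 0.513% higher, and 31 of 12471 genes were as low or lower. The others were Ccl2 at -0.71 ± 0.29, Ccl3 at -0.58 ± 0.29, Ccl9 at -0.49 ± 0.29 and Ccl4 at -0.46 ± 0.29. Ccl4 thus passed the 2-fold size between siRNAs under LPS and not here, its DMSO level being lower with Ruvbl2 siRNA too. Ccl5 had 0.24 ± 0.29, within its error of 0. With spike-in scaling the median of all genes moved to 0.28, and the 6 values ran from -1.29 for Ccrl2 to 0.55 for Ccl5. Their order could not change, since that scaling shifts every gene alike.

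**Figure D4:**
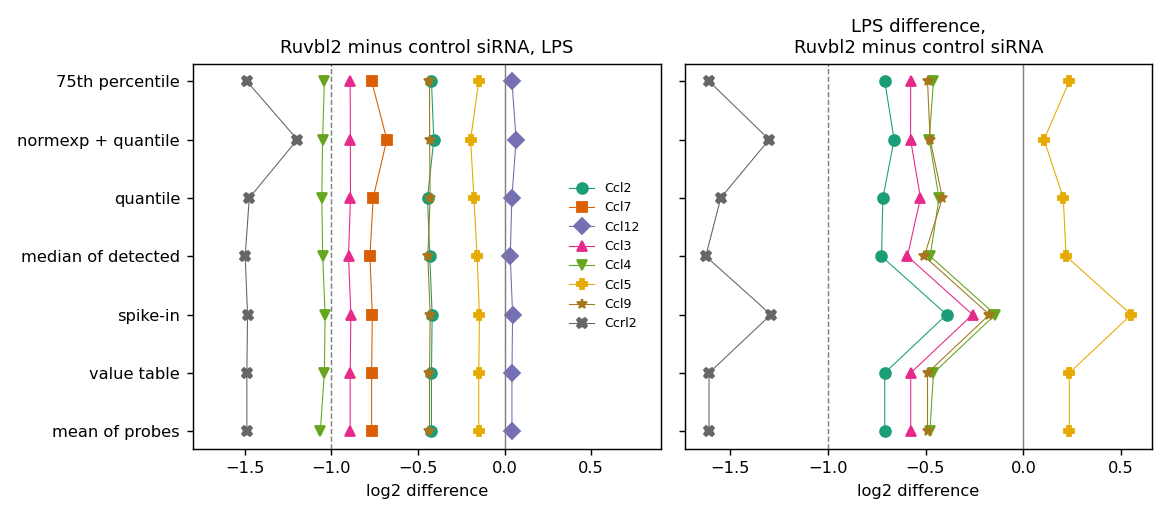
Differences between siRNAs under LPS (left) and between the LPS differences (right), in log2, for each gene under the 75th percentile scaling and 6 other ways of computing the level, 1 row per setting. Under LPS the values of a gene form near-vertical lines, with Ccrl2 between -1.50 and -1.20 and Ccl4 between -1.06 and -1.04, and on the right spike-in scaling moves every gene to the right.

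On the chromosomes, 7 of the 9 genes lie on chromosome 11 in a pair of clusters, with Ccl22 on chromosome 8 and Ccrl2 on chromosome 9 beside Ltf. In the RefSeq order of protein-coding genes, Ccl2, Ccl7, Ccl11, Ccl12 and Ccl8 follow each other, and so do Ccl5, Ccl9, Ccl6, Ccl3 and Ccl4. Neighbours did not share a pattern throughout. In the first cluster Ccl2, Ccl7 and Ccl12 were higher with LPS, whereas Ccl11 and Ccl8, between and beside them, were not well above background on any array. In the second cluster all 5 genes were detected on every array.

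Among the other CC family genes, 16 further ligands were listed, of which 13 had a named probe and 4 were detected on at least 1 array (Ccl6, Ccl17, Ccl24 and Ccl25). Ccl6, a ligand of CCR1 in the mouse, had levels of -0.33 with Ruvbl2 siRNA and 0.79 with control siRNA under LPS, against -1.91 with Ruvbl2 siRNA and -1.85 with control siRNA in DMSO. It was called higher with LPS with both siRNAs (1.58 ± 0.21 with Ruvbl2 siRNA, 2.64 ± 0.21 with control siRNA) and lower with Ruvbl2 siRNA under LPS (-1.12 ± 0.20). The last value was -0.93 after normexp correction with quantile normalization. The LPS difference of Ccl6 was also called smaller with Ruvbl2 siRNA, by -1.06 ± 0.29. It did not pass the 2-fold size after normexp correction with quantile normalization (-0.91) or with spike-in scaling (-0.74). Ccl25, a gut and thymus chemokine, was detected on all arrays and passed the 2-fold size in no comparison, at 0.38 ± 0.20 between siRNAs under LPS. Ccl17 and Ccl24 were detected on the control siRNA LPS array alone, just over its floor.

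Of the 11 conventional CC receptors, 5 were detected on at least 1 array (Ccr2, Ccr3, Ccr8, Ccr9 and Ccr10), none above a level of -2. Ccr1, a receptor of CCL3 and CCL5, was not well above background on any array. Ccr2, the receptor of CCL2, CCL7 and CCL12, had levels of -2.66 with Ruvbl2 siRNA and -4.15 with control siRNA under LPS, against -3.21 with Ruvbl2 siRNA and -4.16 with control siRNA in DMSO. Both Ruvbl2 siRNA arrays were above both control siRNA arrays. The difference was 1.49 under LPS (called higher) and 0.95 in DMSO, each with an SD of 0.47 from the probes printed 10 times, and normexp correction with quantile normalization gave 0.57 and 0.32. None of the 4 other atypical receptors (Ackr1 to Ackr4), nor Rarres2, the gene of chemerin, nor the chemerin receptor genes Cmklr1 and Gpr1, was detected.

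**Figure D5:**
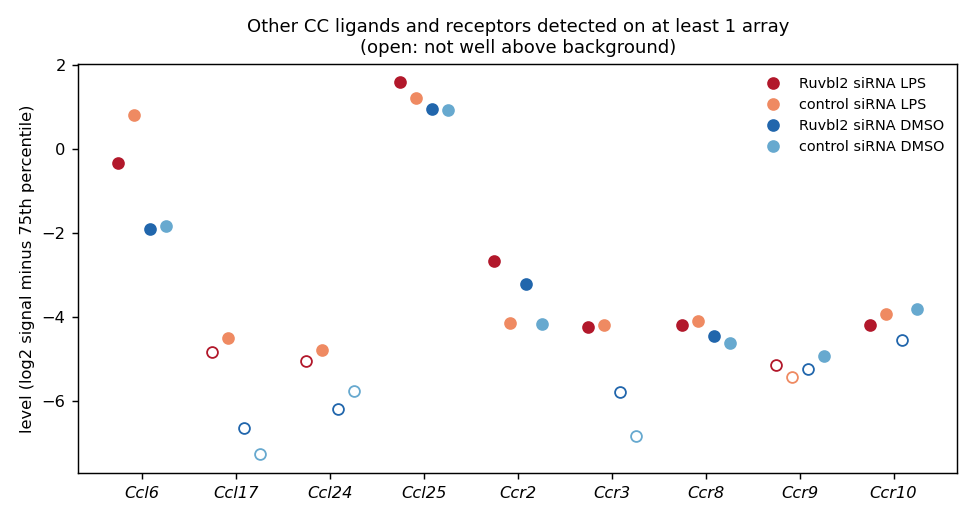
Levels (log2, relative to the 75th percentile of each array) of the other CC ligands and receptors detected on at least 1 array, 4 points per gene in the order Ruvbl2 siRNA LPS, control siRNA LPS, Ruvbl2 siRNA DMSO and control siRNA DMSO, open where not well above background. Ccl6 stands at -0.33 with Ruvbl2 siRNA and 0.79 with control siRNA under LPS, and Ccr2 is higher on both Ruvbl2 siRNA arrays.

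Of the genes of Toll-like receptor 4 signalling and transcription described here, Nfkbiz was called higher with LPS with both siRNAs and Cd14 with control siRNA. Cd14, the LPS co-receptor, had an LPS difference of 0.88 with Ruvbl2 siRNA and 1.08 with control siRNA, and 1.06 with Ruvbl2 siRNA after normexp correction or 1.25 with spike-in scaling. Nfkbiz, the gene of a nuclear IkB protein that works with NF-kB at secondary response genes, had a signal of 478 with Ruvbl2 siRNA and 1122 with control siRNA under LPS, against 136 with Ruvbl2 siRNA and 208 with control siRNA in DMSO. It was called lower with Ruvbl2 siRNA under LPS (-1.27 ± 0.20), and its LPS difference was smaller by 1.12 with Ruvbl2 siRNA (-1.12 ± 0.29, or -0.80 with spike-in scaling and -0.90 with the mean of its probes).

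Of 5 genes that act on mRNA decay, 1 was called higher with LPS with Ruvbl2 siRNA and 2 with control siRNA, against 4.09% and 5.75% of all genes with the same siRNAs. Zfp36, whose product tristetraprolin promotes the decay of cytokine mRNAs, was 2.14-fold higher with LPS with Ruvbl2 siRNA and 3.03-fold higher with control siRNA (software SD of each log2 difference 0.20). Zc3h12a, which encodes the ribonuclease Regnase-1, was 1.63-fold higher with Ruvbl2 siRNA and 2.82-fold higher with control siRNA (software SD of each log2 difference 0.23). After normexp correction with quantile normalization its log2 difference with control siRNA was 0.74, under the 2-fold size, and spike-in scaling gave 1.08 with Ruvbl2 siRNA, past it. None of the 5 was called between siRNAs in either treatment.

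The genes closest in pattern to Ccl2, Ccl5 and Ccrl2 were sought among 558 other genes called higher with LPS with control siRNA and detected on all 4 arrays, by the root mean square difference of levels centred on each gene's own mean. Over 4 arrays from 4 cultures this describes these arrays only. Genes with clone, Gm, LOC or Rik symbols were left out of the search. Ccl2 was closest to Lcn2, an iron-scavenging protein gene (0.33), then Siglec1 (0.41), Fpr2 (0.66), Clec4n (0.77) and Nos2 (0.84). Ccl5 was closest to Scimp, a transmembrane adaptor gene (0.29), then Zbp1 (0.35), Nos2 (0.36), Acod1 (0.38) and Socs3 (0.38). Ccrl2 was closest to Plk2, a polo-like kinase gene (0.19), then Phlda1 (0.21), Sqor (0.22), Ccl6 (0.23) and Nfkbiz (0.23). Nos2 was listed for both Ccl2 and Ccl5, though it lay further from Ccl2 (0.84) than from Ccl5 (0.36). The genes nearest Ccrl2 included a CC ligand, Ccl6. A small distance did not mean a like difference between siRNAs. Under LPS, Ccl2 had centred levels of 3.15 with Ruvbl2 siRNA and 3.57 with control siRNA. With the same siRNAs Lcn2 had 2.90 and 3.27, but Siglec1 had 2.49 and 3.93. Ccl5 had 2.35 and 2.49 there, against 1.94 and 2.29 for Socs3 but 1.85 and 2.95 for Zbp1.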

How the data were processed

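RNA of 4 cultures, 1 per group, was labelled with Cy3 and hybridised to 1-colour Agilent whole-genome mouse arrays. Per the file headers, each deposited intensity is the processed signal of a spot, background-subtracted and detrended within the array by Agilent Feature Extraction 11.5.1.1 (version 11.0 per the submitters' processing notes), and is not scaled between arrays. A deposited value table equalled these values within 0.1% at all 62976 spots.

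Spots of a probe were averaged on the log2 scale without population outliers, and the array's 75th percentile (407, 395, 331 and 456 on the Ruvbl2 LPS, control LPS, Ruvbl2 DMSO and control DMSO arrays) was subtracted. No spot was saturated, and 54.1% to 55.0% of spots were well above background. RefSeq transcript accessions named 32994 of 56605 probes. A gene was read from its probe with the highest mean level. A probe dim on 1 array of a pair took there the lowest level of any named gene detected on that array, or its own value where that was higher. All 9 genes are named, as are other CC family genes detected on at least 1 array, and pathway genes called in a comparison; Ccr1, Ccl8, Ccl11 and the chemerin genes were named after their values were seen. The genes, lists and alternatives were chosen with earlier results of these data known. The scripts were tested on simulated data. Computation used Python 3.11.15, pandas 2.3.3, and limma 3.58.1 for normexp, with an offset of 50, on median rather than mean spot signals, since the files hold no means. Alternatives were other scalings and background correction, the deposited table, the mean of a gene's probes, other filters and other sizes. Protein sequences were not used here, and some genes of the lists are not reported here.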

Additional observations from a re-analysis of the deposited data

Results flagged for a closer look

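Within the group, 3 genes were picked out because the difference between siRNAs had opposite signs in the 2 treatments, and the difference between treatments was not tested, there being 1 array per group. For Ccrl2, Ruvbl2 siRNA minus control siRNA was -1.49 under LPS and 0.12 in DMSO. For Ccl2 it was -0.42 under LPS and 0.29 in DMSO. For Ccl9 it was -0.43 under LPS and 0.056 in DMSO. The DMSO values of Ccrl2 and Ccl9 lay within 1 software SD of 0 (0.24 and 0.20), and all 3 DMSO values were below 0 with spike-in scaling (-0.19 for Ccrl2, -0.03 for Ccl2 and -0.26 for Ccl9). Quantile normalization turned that of Ccl9 as well, to -0.02.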

How the results depend on the processing

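Of 10 alternatives, the size rule alone moved a count of called genes in the group by more than 1.5 times. At 1.5-fold, 4 genes were lower with Ruvbl2 siRNA under LPS and 2 had a smaller LPS difference with Ruvbl2 siRNA, and at 4-fold both counts were 0. Of 216 differences recomputed under 6 other ways of obtaining the level, 4 turned sign, all between siRNAs in DMSO and none of them called. Another 2 changed call, Ccrl2 and Ccl9 for LPS with Ruvbl2 siRNA, and 42 moved by more than the SD of probes printed 10 times. The deposited table equals the values used, so its share of the 216 could not move. The mean of probes could move only Ccl4, which has 2 probes, and the limits of Ccl7 and Ccl12, which rest on a floor. The limits for Ccl7 and Ccl12 moved most: the log2 difference of Ccl7 ran from 3.25 to 6.46 with Ruvbl2 siRNA and from 3.80 to 7.53 with control siRNA, and that of Ccl12 from 2.61 to 5.58 and from 2.42 to 5.84. For all genes, normexp correction with quantile normalization gave 72 lower and 23 higher between siRNAs under LPS (24.2% higher, against 197 and 140, or 41.5%, as reported) and 25 and 13 in DMSO (34.2%, against 71 and 136, or 65.7%). It gave 298 genes higher with LPS with Ruvbl2 siRNA, 445 with control siRNA and 51 with a smaller LPS difference, against 553, 776 and 147. Spike-in scaling gave 215 lower and 68 higher between siRNAs in DMSO (24.0%), 1101 higher and 119 lower with LPS with Ruvbl2 siRNA (90.2%, against 66.4%), and 59 smaller and 243 larger LPS differences (80.5% larger, against 30.3%). The mean of probes gave 196 lower and 213 higher between siRNAs in DMSO (52.1% higher), no filter on dim probes 575 there, 765 under LPS, 1151 higher with LPS with Ruvbl2 siRNA and 1336 with control siRNA, and 1342 smaller LPS differences. A minimum level of -2 on the brighter array left 34 lower in DMSO, 112 lower under LPS, 366 higher with LPS with Ruvbl2 siRNA and 96 smaller LPS differences. At 1.5-fold the counts of all genes were 333, 708, 1223 and 651 in the same order, with 1609 higher with LPS with control siRNA, and at 4-fold 7, 15, 158 and 8, with 229. No paired analysis was possible because each group had 1 array, and for the same reason no array could be left out. Signal over background limits Ccl7, Ccl12 and Ccl22 in DMSO and the dim receptors.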
